A study of Mus musculus with 12 samples.

Results

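The Hox cluster genes were described in RNA-Seq data from the proximal colon of 12 mice. The rule listed 38 protein-coding Hox genes of clusters A to D by symbol, without use of any measured value, among the 38924 genes of each deposited count table. An identifier was matched for 37 of the 38 genes, and Hoxd4 had no matching identifier. The samples were 6 APC Min/+ mice, which carry the Min mutation in a single copy of the Apc tumor suppressor gene, and 6 wild type (WT) mice. All were C57BL/6 females killed at 6 weeks of age, with no other allele or treatment in either group. The study compared the genotypes to ask how host transcripts differ before polyps form. The sample is labelled proximal colonic mucosa and was, by the study's methods, a short section of bowel kept whole for total RNA extraction, so levels of several cell types are added together and fewer cells of a type cannot be told apart from less RNA per cell. The genotypes were housed in separate cages and arrived in several shipments, and the labels do not place mice in cages or shipments, so that cage and genotype cannot be told apart.

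Hox genes encode homeodomain transcription factors that bind DNA through a conserved helix-turn-helix and give cells along the body axis their positional identity. In mammals they lie in clusters named A to D, and genes of the same paralog number in different clusters descend from 1 ancestral gene. Along each cluster the order of the genes follows the order in which they are switched on along the body, from low paralog numbers at the head end to paralog 13 at the tail end, which is called colinearity. In the gut, the highest paralog numbers mark the hindgut and its end near the anus, and Hox genes are used both in the wall mesenchyme and in the epithelium. In the GENCODE M21 annotation of GRCm38, the 10 HoxA genes matched span 98.5 kb of chromosome 6, from 52162417 to 52260880 on the reverse strand. The 10 HoxB genes span 173.9 kb of chromosome 11 from 96194316 to 96368256, the 9 HoxC genes 115.8 kb of chromosome 15 from 102921103 to 103036852, and the 8 HoxD genes 96.8 kb of chromosome 2 from 74668310 to 74765142, all on the forward strand.

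The results below turn on the paralog 13 genes and on the middle of the HoxB cluster, so the homeobox, the coding stretch for the DNA-binding homeodomain, is shown for 3 paralog 13 genes and for Hoxb6, the Hox gene with the highest mean level in WT colon. Each stretch holds 180 bases, is read 5′ to 3′ from the GENCODE M21 transcript on GRCm38 and lies in 1 exon. Capitals mark the bases that differ from the Hoxa13 homeobox at the same position.
Hoxa13, chr6:52258928-52259107, reverse strand: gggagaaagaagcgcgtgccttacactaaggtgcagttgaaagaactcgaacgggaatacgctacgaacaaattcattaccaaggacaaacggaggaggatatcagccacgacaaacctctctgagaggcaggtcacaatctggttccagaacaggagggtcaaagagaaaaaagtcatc
Hoxb13, chr11:96196020-96196199, forward strand: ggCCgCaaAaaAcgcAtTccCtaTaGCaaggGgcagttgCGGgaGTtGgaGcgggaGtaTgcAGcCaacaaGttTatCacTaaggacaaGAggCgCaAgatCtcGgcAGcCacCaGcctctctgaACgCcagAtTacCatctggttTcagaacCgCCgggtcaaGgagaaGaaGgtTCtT
Hoxd13, chr2:74669930-74670109, forward strand: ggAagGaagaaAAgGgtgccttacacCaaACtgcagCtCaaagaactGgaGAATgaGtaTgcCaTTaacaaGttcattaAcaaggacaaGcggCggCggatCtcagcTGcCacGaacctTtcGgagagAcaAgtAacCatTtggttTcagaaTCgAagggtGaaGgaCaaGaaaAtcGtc
Hoxb6, chr11:96300689-96300868, forward strand: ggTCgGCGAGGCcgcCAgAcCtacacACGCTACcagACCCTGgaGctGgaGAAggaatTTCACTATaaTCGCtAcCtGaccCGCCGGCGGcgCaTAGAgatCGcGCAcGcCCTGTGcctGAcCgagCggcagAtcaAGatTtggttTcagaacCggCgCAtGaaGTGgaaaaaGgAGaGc
The Hoxb13 homeobox differed from that of Hoxa13 at 56 bases, that of Hoxd13 at 47 and that of Hoxb6 at 93. Over the 37 genes, pairs of the same paralog number were alike at a median of 80.6% of homeobox bases (range 67.2 to 93.9, 37 pairs), and pairs of other numbers at a median of 60.6% (46.1 to 88.9, 629 pairs). No stretch of 100 bases, the read length, was shared by the annotated transcripts of Hox genes of different clusters. Within clusters, Hoxc5 and Hoxc10 alone shared such stretches, 69 in number, because their annotated exons overlap by 166 bases, so counts of this pair are uncertain.

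The promoters of Hoxa13 and Hoxd13 and that of Hoxb8 are shown because these genes went in opposite directions in the differences described below. On the log2 scale the largest differences upward and downward were those of Hoxb13 and Hoxb6, whose promoters are not shown. Each is the 250 bases before the RefSeq start site on GRCm38.p6, read 5′ to 3′ along the gene's strand. Capitals mark matches on either strand to TTTAT, the core of the site bound by caudal-type (Cdx) factors, or to CTTTGAT, the core bound by Tcf/Lef factors of the Wnt pathway.
Hoxa13, chr6:52260881-52261130, reverse strand: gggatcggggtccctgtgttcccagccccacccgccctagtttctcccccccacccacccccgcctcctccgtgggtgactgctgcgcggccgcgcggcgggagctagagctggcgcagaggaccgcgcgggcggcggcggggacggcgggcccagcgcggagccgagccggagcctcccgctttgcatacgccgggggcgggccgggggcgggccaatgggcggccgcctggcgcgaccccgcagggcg
Hoxd13, chr2:74667975-74668224, forward strand: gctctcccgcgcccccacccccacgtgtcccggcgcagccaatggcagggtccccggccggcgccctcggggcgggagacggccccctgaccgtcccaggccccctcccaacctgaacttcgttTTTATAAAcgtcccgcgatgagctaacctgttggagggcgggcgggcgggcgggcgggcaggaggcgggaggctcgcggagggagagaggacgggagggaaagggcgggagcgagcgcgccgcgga
Hoxb8, chr11:96281655-96281904, forward strand: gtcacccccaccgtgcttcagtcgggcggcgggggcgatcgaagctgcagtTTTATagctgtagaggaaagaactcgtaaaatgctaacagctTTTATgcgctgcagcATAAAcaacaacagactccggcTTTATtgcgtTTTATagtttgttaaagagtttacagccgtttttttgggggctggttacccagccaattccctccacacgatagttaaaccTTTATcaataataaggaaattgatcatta
The Hoxb8 promoter held 6 matches to TTTAT, that of Hoxd13 held 2 that overlap each other, and none was found in the Hoxa13 window. TTTAT or its reverse complement was present in 37.3% of the 32851 mouse promoters of this length and in the promoters of 7 of the 21 Hox genes with an entry. CTTTGAT was present in 3.21% of all promoters and in that of Hoxd8 alone among these genes. A match describes the letters and does not show binding.

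Each mouse contributed between 50313805 and 197914821 gene counts. Levels are given as CPM, counts scaled to a common library size with TMM factors of 0.906 to 1.10, and 3 counts correspond to 0.0152 to 0.0596 CPM. Levels of different genes were compared only as RPKM, the CPM per kilobase of the deposited gene length. Of the 37 Hox genes, 34 passed the filter of 10 counts in at least 3 mice, Hoxb1 did not, and Hoxc12 and Hoxc13 had 0 counts in all 12 mice. Hoxd12 passed only through APC Min/+ mice M10_2 (286 counts) and M13_1 (812 counts) and WT mouse M18_2a (12 counts). The tallies of tested Hox genes below therefore include a gene kept by the mice in which it was high. The epithelial marker Epcam was counted between 1240 and 1620 CPM in every mouse. The libraries of 2 APC Min/+ mice, M10_2 and M13_1, stood apart from the other 10 in many Hox genes. They carry the same proximal colon label as the rest. Car1, a carbonic anhydrase of proximal colonocytes, was at 965 and 2540 CPM in them against 14600 to 32600 CPM in the other 10. Other colonic epithelium markers went both ways, with Car4 at 924 and 953 CPM against 241 to 582. Muc2 was at 1710 and 1270 CPM against 2830 to 10500. Hoxa13, Hoxb13 and Hoxd13 were high in both libraries. Whether the 2 sections came from the same site of the bowel as the others was not tested. Because these libraries were recognised by the outcome itself, each is given by its own value and the genotype comparison is given with and without them.

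In WT proximal colon, 19 of the 37 Hox genes had a mean of at least 1 RPKM (n = 6), another 10 lay between 0.1 and 1 RPKM, and 8 lay below. The HoxB cluster dominated, with 77.6% ± 2.01 (SD, n = 6) of the summed Hox RPKM. All of Hoxb3 to Hoxb9 were above 1 RPKM. The highest means were those of Hoxb6 at 38.2 RPKM (26.7 to 55.8 over the 6 mice) and Hoxb9 at 36.5 ± 1.58 RPKM (SD, n = 6), whose values overlapped between mice. Next came Hoxb7 at 15.5 ± 2.17, Hoxb5 at 13.9 ± 4.78, Hoxb8 at 8.22 ± 1.31, Hoxb4 at 7.90 ± 2.56 and Hoxb3 at 7.36 ± 1.45 RPKM. The 2 ends of the cluster were low, with Hoxb2 at 0.931, Hoxb1, a gene of the embryonic hindbrain, at 0.00299 and Hoxb13 at 0.0487 RPKM. Along the HoxB cluster the level was thus highest at paralogs 6 and 9, with lower values between and before them.

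The HoxD cluster held a second, lower group of expressed genes. The mean was 5.02 ± 0.952 RPKM for Hoxd10, 4.86 ± 2.46 for Hoxd3, 4.31 ± 0.597 for Hoxd8, 3.46 ± 0.349 for Hoxd9 and 1.48 ± 0.350 for Hoxd11 (SD, n = 6). The genes at the end of the cluster, Hoxd12 and Hoxd13, which pattern the limb and the terminal hindgut, had means of 0.0175 and 0.0669 RPKM, and Hoxd1 had 0.0389. The mean of Hoxd3 was set in part by WT mouse M17_1, described below. The M21 gene model of Hoxd4, which had no matching identifier, lies within the span of Hoxd3, and the deposited Hoxd3 length of 6627 bases exceeds the 4191 exonic bases of M21, so reads from Hoxd4 may be part of the Hoxd3 counts, which was not tested. Hoxd3 exons overlap those of the opposite-strand transcripts Hoxd3os1 and Haglr over 8.8% of their length, and whether the counting used strand is not given in the sources used here.

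HoxA genes were present at low levels along the whole cluster. Hoxa10 reached 3.18 ± 0.458 RPKM and Hoxa7 3.03 ± 0.803, followed by Hoxa11 at 2.02, Hoxa5 at 1.69, Hoxa9 at 1.44, Hoxa3 at 1.22 and Hoxa2 at 1.20. Hoxa6 at 0.698, Hoxa13 at 0.696 and Hoxa4 at 0.475 RPKM lay between 0.1 and 1. Hoxa13, a gene of the distal limb and hindgut, was therefore the most abundant paralog 12 or 13 gene of WT proximal colon, with a mean of 1.72 ± 0.603 CPM (SD, n = 6). Annotated exons of Hoxa11 are shared with the antisense transcript Hoxa11os over 35.0% of their length and those of Hoxa7 with Hoxaas3 over 20.4%, so these levels are uncertain. In the HoxB cluster the same holds for Hoxb3, shared with Hoxb3os over 52.9%, and Hoxb2 over 27.3%.

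No HoxC gene reached 1 RPKM. The highest was Hoxc6 at 0.569 ± 0.151 RPKM (SD, n = 6), and Hoxc10, Hoxc4, Hoxc11, Hoxc8 and Hoxc5 lay between 0.156 and 0.288. Hoxc9, which acts in thoracic motor neurons, was at 0.0756 RPKM. The summed HoxC level was 1.77 ± 0.329 RPKM against 128 ± 22.6 RPKM for HoxB, 19.3 ± 3.20 for HoxD and 15.6 ± 2.47 for HoxA. Along the whole order of 37 genes, the ranges of neighbouring genes over the 6 WT mice overlapped except between Hoxb9 and Hoxb7 and between Hoxc5 and Hoxc9.

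**Figure D1:**
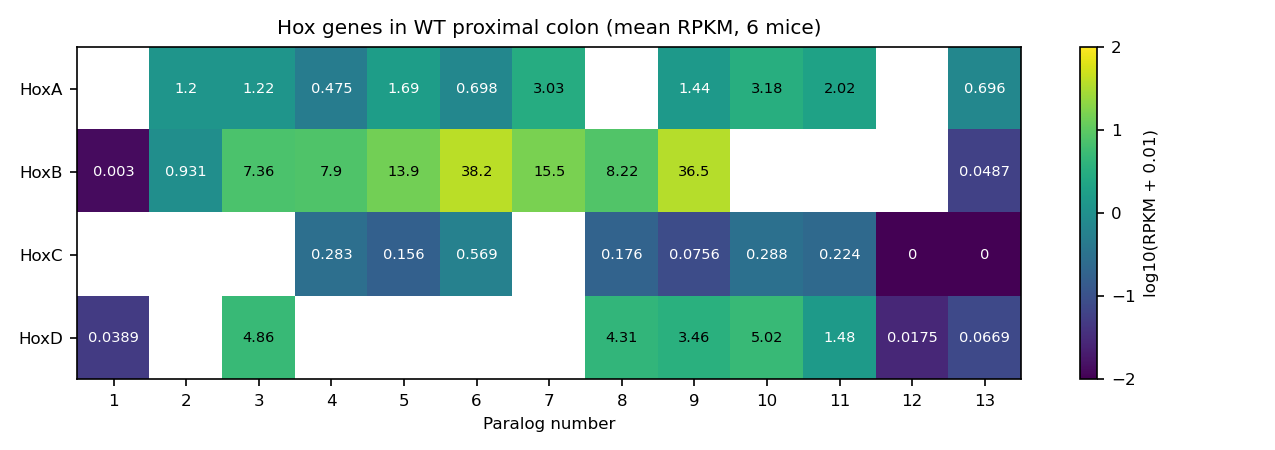
Mean RPKM of each Hox gene over the 6 WT mice, with paralog number on the horizontal axis, cluster on the vertical axis and colour on a log10 scale. The HoxB row is brightest from paralog 3 to 9 with its highest value of 38.2 at Hoxb6, HoxC stays below 1, and blank cells hold no gene described here.

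Taken by paralog number, the summed level in WT mice reached 22.4 RPKM (median 15.5) for paralogs 1 to 3 and ran from 70.6 to 130.0 RPKM (median 92.6) for paralogs 4 to 8 and from 49.5 to 58.0 RPKM (median 53.3) for paralogs 9 to 11. Paralogs 12 and 13 summed to between 0.416 and 1.19 RPKM (median 0.851), which was 0.200 to 0.672% of all Hox RPKM. Relative to its mean, the paralog 9 to 11 sum varied least between WT mice (53.6 ± 3.04 RPKM, SD, n = 6), and the paralog 4 to 8 sum was highest in M17_1.

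The WT mice were not alike in the middle of the clusters. M17_1 had the highest WT value in 8 of the 23 Hox genes with a WT mean of at least 1 CPM, and the lowest in 5. Its Hoxd3 count was 64.0 CPM against 18.9 to 31.0 in the other 5 WT mice, its Hoxb5 count 64.7 CPM against 25.5 to 39.8, and its Hoxb6 count 115.7 CPM against 55.5 to 84.1. Hoxa11 was at 2.51 CPM in this mouse and at 4.998 to 8.11 CPM in the others. M17_1 was the highest WT mouse at Hoxa2, Hoxb3 to Hoxb7, Hoxb9 and Hoxd3, and the lowest at Hoxa7, Hoxa11, Hoxa13, Hoxb2 and Hoxd8. In the same mouse the smooth muscle and fibroblast markers summed to 6080 CPM, the lowest of the 12 mice. Its fibroblast sum of 1100 CPM was the lowest, but its smooth muscle sum of 4980 CPM exceeded those of M18_2b (4450) and M19_1 (4700). Single markers were split, with Col3a1 (259 CPM) and Myh11 (1420 CPM) at the WT minimum and Actg2 (667 CPM) and Tagln (1000 CPM) at the WT maximum. The part of these markers in the Hox profile was not tested. M18_b had the lowest WT value in 14 of the 23 genes.

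Because the section holds gut wall as well as epithelium, the level of each of these 23 Hox genes was set against the summed level of the smooth muscle and fibroblast markers over the 10 mice other than M10_2 and M13_1. Pearson's r ranged from -0.910 to 0.842 with a median of -0.122, and 11 of 23 were positive. Hoxb9, which acts in thoracic patterning, had the lowest (r = -0.910, permutation p = 0.00050, adjusted over 23 relations 0.0115; Spearman's rho = -0.842, permutation p = 0.00393, adjusted 0.0342). Hoxd9 had the highest (r = 0.842, permutation p = 0.00245, adjusted 0.0282; rho = 0.818, permutation p = 0.00564, adjusted 0.0342). Without the 2 mice farthest from the median marker level, M20_1 and M2_A, r was -0.848 for Hoxb9 and 0.648 for Hoxd9. Hoxa10 and Hoxa11 passed the adjusted threshold by rank alone, with rho of 0.818 and 0.879 (permutation p of 0.00594 and 0.00139, adjusted 0.0342 and 0.0320). With the fibroblast list alone, the smooth muscle list alone or without M2_A, 0 of 23 relations passed by Pearson's r and 0 by rank. Leaving out M18_2b, M20_1, M16_1 or M17_1 singly also left 0 by rank, with 1 or 2 by Pearson's r.

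The marker level itself differed with genotype, from 6080 to 7500 CPM in WT and from 6340 to 9140 CPM in the 4 APC Min/+ mice used. Within the 6 WT mice, r was -0.759 for Hoxb9 (exact permutation p = 0.111), 0.524 for Hoxd9 (p = 0.299, exact permutation), 0.548 for Hoxa10 (p = 0.269, exact permutation) and 0.944 for Hoxa11 (p = 0.00139, exact permutation). These p-values are unadjusted over the 4 relations. The 4 genes were picked from the 23 because they passed over the 10 mice. Those include the 6 WT mice, so the WT values are no independent test. The exact permutation p of 0.00139 for Hoxa11 is the smallest that 6 mice allow. M17_1 was the lowest WT mouse both in marker level and in Hoxa11. Over all 12 mice, 0 of 23 relations passed the adjusted threshold by Pearson's r and 3 by rank.

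The genotype comparison with edgeR's quasi-likelihood test called 0 of the 34 Hox genes tested, as it called 0 of all 20311 genes (0.0%), at a Benjamini-Hochberg FDR under 0.05 and at least a 2-fold change. The lowest FDR was 0.908. The study also used edgeR with an FDR under 0.05 and a 2-fold cutoff, and listed Hoxa13, Hoxb13, Hoxd12 and Hoxd13 as upregulated. Of the neighbouring genes and markers described below, its upregulated genes also included Hoxa11os, Evx2, Myh2 and a Hottip entry. It did not name the edgeR test used, and the source of the difference was not tested. An unadjusted p under 0.05 was found for 10 of the 34 Hox genes, against 5.27% of all genes (1071). These were Hoxa5, Hoxa6, Hoxa7, Hoxa9, Hoxa10, Hoxa13, Hoxb9, Hoxb13, Hoxd12 and Hoxd13. A fitted change of at least 2-fold upward in APC Min/+ mice was found for 9 of 34, all of these except Hoxb9, against 2.14% of all genes, and downward for 0 of 34 against 1.18%. The median log2 fold change over the 34 genes was -0.079, beside -0.008 over all genes tested. DESeq2 called 1 Hox gene, Hoxb13 (adjusted p = 0.0186), among 27 genes of 20311 (0.133%), and gave no adjusted p for Hoxd11 and Hoxd13. The likelihood ratio and exact tests of edgeR called Hoxd13 alone among 15 and 12 genes, and limma-voom called none.

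The values of no Hox gene separated the genotypes completely, against 0.118% of all genes, 24 in number. In the exact rank permutation test, two-sided, the smallest p the design allows is 0.00216, and the lowest adjusted p over all genes was 0.970. Leaving out APC Min/+ mouse M18_2b separated the genotypes in Hoxb9, and leaving out WT mouse M19_1 separated them in Hoxd13.

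The fitted fold changes came with large standard errors. Hoxb13 had a log2 fold change of 9.86 (SE 2.51, FDR = 0.908 in edgeR's quasi-likelihood test), Hoxd13 one of 7.76 (SE 1.94), Hoxd12 one of 5.21 (SE 1.63) and Hoxa13 one of 3.82 (SE 1.09). Elsewhere in the HoxA cluster it was 2.09 (SE 0.690) for Hoxa6, 1.52 (SE 0.487) for Hoxa9, 1.48 (SE 0.509) for Hoxa5, 1.11 (SE 0.393) for Hoxa10 and 1.09 (SE 0.396) for Hoxa7. All of these genes shared the FDR of 0.908. When single mice were left out, the log2 fold change of Hoxd13 ranged from 4.03 to 8.12 and that of Hoxa13 from 3.01 to 4.08. The FDR was also 0.908 for Hoxb9, with -0.37 (SE 0.141), and for Hoxb5, with -0.74 (SE 0.512). For the other highly expressed genes the log2 fold change was -0.68 (SE 0.714, FDR = 0.910) for Hoxb6, -0.63 (SE 0.680, FDR = 0.911) for Hoxb7 and -0.50 (SE 0.722, FDR = 0.917) for Hoxb8. The edgeR values describe the spread between these mice, which for these genes was wider in the APC Min/+ group.

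Without M10_2 and M13_1, on the same 20311 genes, edgeR called 0 genes and each of the 14 fold changes named above was smaller in size. An unadjusted p under 0.05 remained for 1 of 34 Hox genes, Hoxd13, against 1.66% of all genes (log2 fold change 1.03, SE 0.461, FDR = 1.0). A change of at least 2-fold in either direction was fitted for 2 of 34, Hoxb13 (1.24, SE 1.20) and Hoxd13, against 1.58% of all genes. The log2 fold change of Hoxa13 was 0.06 (SE 0.301), that of Hoxa9 0.24 (SE 0.155) and that of Hoxb6 -0.12 (SE 0.177). That of Hoxd12 was -0.48 (SE 0.872) and that of Hoxb8 0.07 (SE 0.178), both opposite in sign to the fit on all 12 mice. Hoxd12 had at most 12 counts in each mouse left, so the sign of its fold change carries no information.

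**Figure D2:**
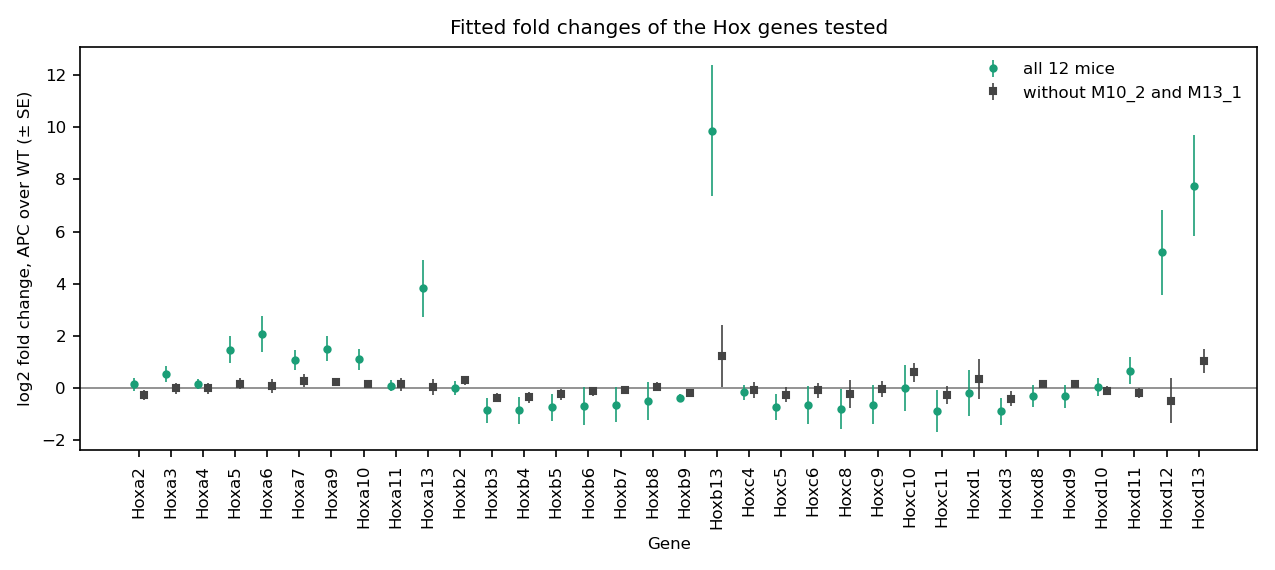
Fitted log2 fold change, APC Min/+ over WT, of the 34 Hox genes tested, with standard errors as bars, in all 12 mice (circles) and without M10_2 and M13_1 (squares). The circles of Hoxa13, Hoxb13, Hoxd12 and Hoxd13 lie between 3.82 and 9.86, and without the 2 mice all points except those of Hoxb13 and Hoxd13 lie within 1 of 0.

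The level in each mouse shows where these values came from. Hoxb13, a paralog of the tail end of the axis, was counted at 377.7 CPM (M10_2) and 274.7 CPM (M13_1). In the other 4 APC Min/+ mice it was at 0.744, 0.241, 0.0255 and 0 CPM, and in WT mice at 0 to 0.384 CPM with a median of 0.0187. In WT the counts behind these values ran from 0 to 40, so the WT level is close to the detection floor. Both mice stood far above all 10 others, which overlapped between genotypes.

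Hoxd13, which with Hoxa13 patterns the distal hindgut and limb, was at 208.9 CPM in M13_1 and 12.4 CPM in M10_2. The other 4 APC Min/+ mice had 0.231 to 0.533 CPM, and WT mice 0.0553 to 0.346 CPM. Hoxd12, its neighbour, was at 8.97 CPM in M13_1, 1.44 CPM in M10_2 and at most 0.107 CPM in the other 10 mice. For both genes M13_1 exceeded M10_2 by a wide margin, unlike Hoxb13.

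Hoxa13 was at 76.5 CPM (M10_2) and 61.8 CPM (M13_1), where the other 4 APC Min/+ mice had 0.974 to 2.25 CPM and the WT mice 0.921 to 2.75 CPM with a median of 1.64. Of the other HoxA genes, Hoxa3, Hoxa5, Hoxa6, Hoxa7, Hoxa9 and Hoxa10 were at least 2-fold above the WT median in both mice. Hoxa9 was at 53.8 and 46.5 CPM in M10_2 and M13_1 against 6.22 to 10.98 CPM in the others, and Hoxa10, which patterns the reproductive tract and trunk, at 47.9 and 39.9 CPM against 8.48 to 14.7. Hoxa7 was at 39.8 and 28.8 CPM against 5.52 to 16.8, Hoxa5, a gene of gut and lung mesenchyme, at 19.06 and 19.7 CPM against 2.20 to 4.58, and Hoxa6 at 12.65 and 13.01 CPM against 0.723 to 1.84. Hoxa3 was at 21.3 and 18.4 CPM against 5.81 to 11.1. The gap was small for Hoxa2, at 5.23 and 4.40 CPM against 2.21 to 4.13, and for Hoxa4, at 1.06 and 1.04 CPM against 0.612 to 1.01. Hoxa11, at 5.96 and 4.84 CPM, lay within the 2.51 to 8.11 CPM of the others. It shares 35.0% of its exonic length with antisense Hoxa11os, which was high in both mice (90.1 and 76.6 CPM). How far this changed the Hoxa11 count was not tested. M10_2 and M13_1 had the highest values of the 12 mice in 9 of the 10 HoxA genes, while 11.8% of all genes tested had them as the 2 highest.

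The HoxB genes other than Hoxb13 went the other way. Hoxb6 was at 1.57 CPM (M10_2) and 3.18 CPM (M13_1), against 64.7 to 79.6 CPM in the remaining 4 APC Min/+ mice and 55.5 to 115.7 CPM with a median of 76.4 in WT. Hoxb7 was at 0.621 and 1.07 CPM against 20.3 to 29.5 CPM in the other 10 mice, and Hoxb8, a regulator of trunk patterning and myeloid progenitors, at 0.465 and 0.861 CPM against 16.6 to 28.3. These 3 neighbouring genes of the cluster had the widest gaps. Toward the head end the gap was smaller, with Hoxb5 at 3.98 and 3.83 CPM against 25.5 to 64.7, Hoxb4 at 2.45 and 3.48 CPM against 20.7 to 50.6 and Hoxb3 at 2.14 and 2.36 CPM against 12.5 to 26.9. Hoxb2 was at 1.95 and 1.62 CPM against 2.17 to 4.45, and its WT median of 3.32 CPM exceeded these values 1.70-fold and 2.04-fold. On the tail side Hoxb9 remained at 57.5 and 48.7 CPM against 75.6 to 101.6, and beyond it lay Hoxb13 with the values given above. The 2 mice were thus the lowest of 12 in 8 of the 9 HoxB genes tested, while 12.2% of all genes tested had them as the 2 lowest.

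**Figure D3:**
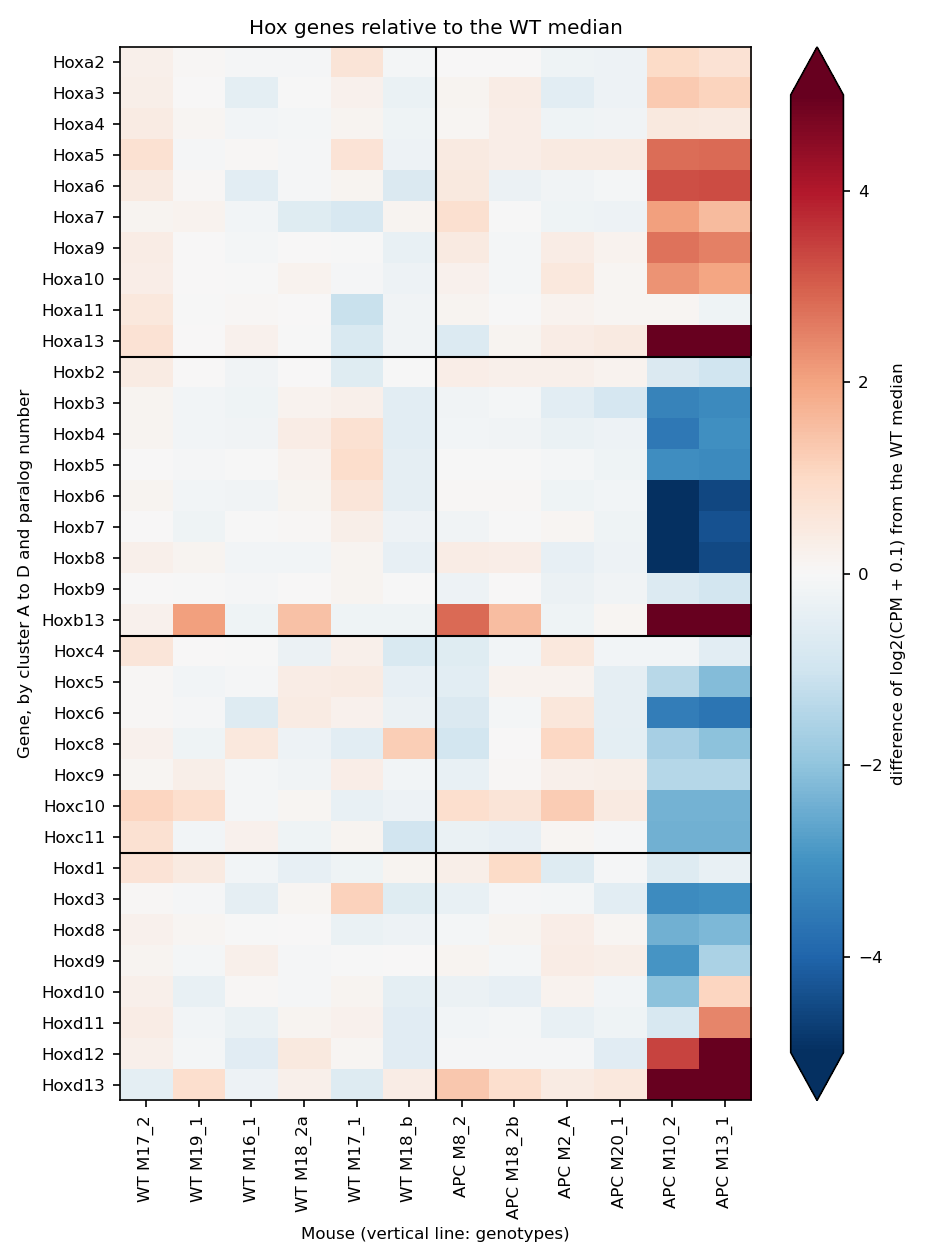
Difference of log2(CPM + 0.1) from the WT median for each of the 34 Hox genes tested (rows, by cluster and paralog number) in each of the 12 mice (columns), with colour cut at 5 in either direction. M10_2 and M13_1, at the right edge, are red along HoxA except at Hoxa11 (log2 differences of 0.09 and -0.21) and at Hoxb13, Hoxd12 and Hoxd13 and blue from Hoxb3 to Hoxb8 and in most of HoxC, while the other 4 APC Min/+ mice resemble WT.

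In HoxC, Hoxc10 and Hoxc11, genes of the lumbar and sacral axis, and Hoxc9 had 0 counts in M10_2 and in M13_1. In the other 10 mice Hoxc10 was at 0.304 to 1.13 CPM, Hoxc11 at 0.171 to 0.803 and Hoxc9 at 0.108 to 0.240. Hoxc6 was at 0.0404 and 0.0221 CPM against 0.841 to 2.19 CPM. Hoxc4 was the exception, at 0.636 and 0.464 CPM within the 0.380 to 1.12 CPM of the others. The 2 mice were the lowest of 12 in 6 of the 7 HoxC genes tested, against 12.2% of all genes tested. HoxC levels were low in every mouse.

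The HoxD cluster divided within itself. Hoxd3 was at 3.24 CPM (M10_2) and 3.42 CPM (M13_1) against 18.9 to 64.0 CPM in the others, and Hoxd8 at 2.19 and 2.52 CPM against 9.74 to 15.2. Hoxd9 was at 0.848 and 2.39 CPM against 6.74 to 9.55. Beyond Hoxd9 the 2 mice parted. Hoxd10 was at 3.30 CPM (M10_2) and 29.4 CPM (M13_1), below and above the 9.93 to 16.4 CPM of the other 10 mice, and Hoxd11 was at 4.84 CPM (M10_2) and 45.6 CPM (M13_1) on either side of 5.66 to 10.8 CPM. At Hoxd12 and Hoxd13 both were above the others, so the sequence from low to high was reached at a lower paralog number in M13_1 than in M10_2.

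**Figure D4:**
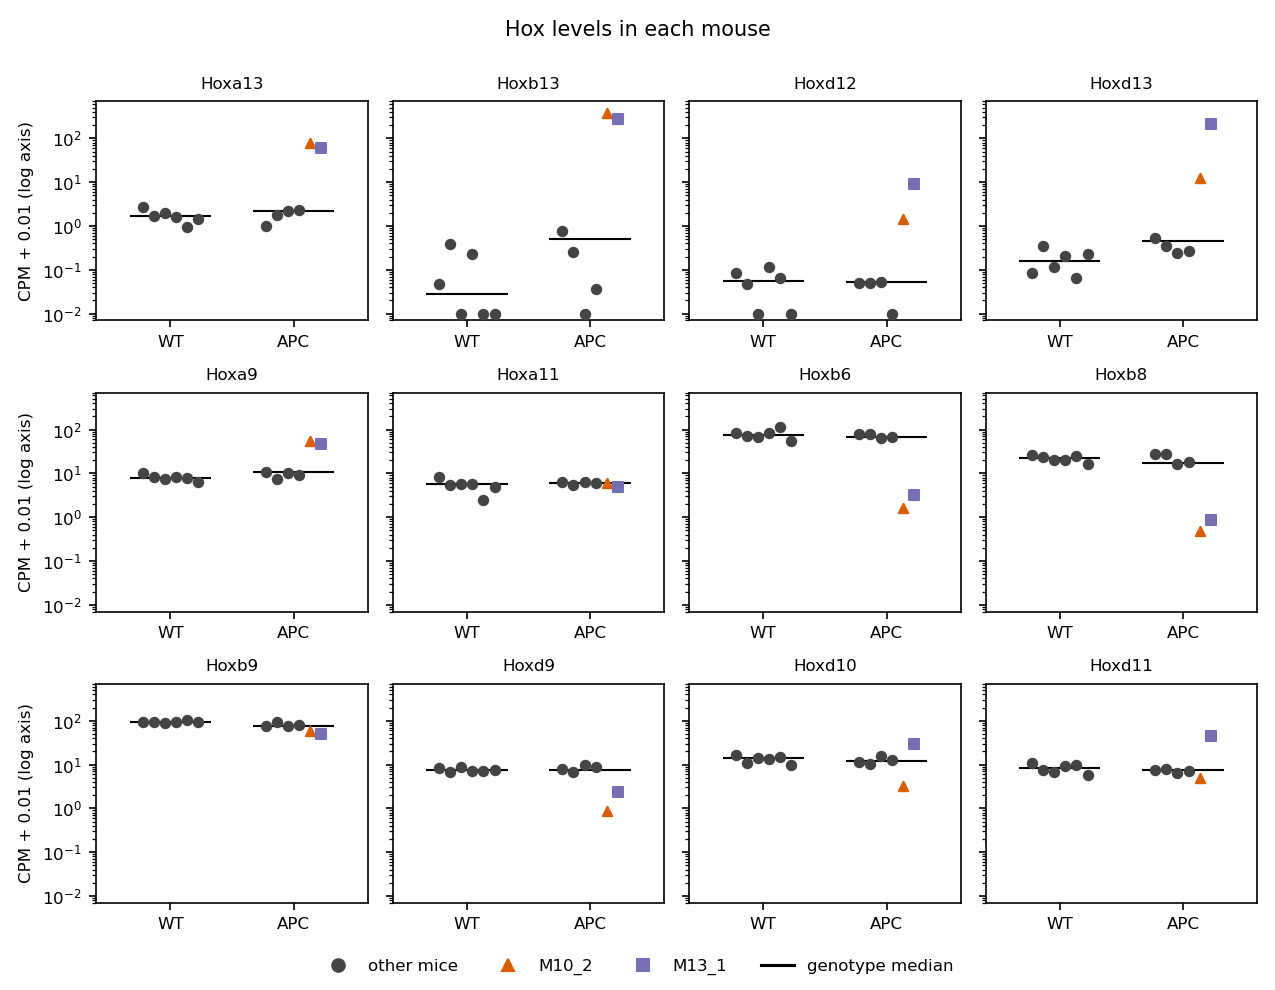
CPM + 0.01 on a log axis of 12 Hox genes in each mouse, with WT at the left and APC Min/+ at the right of each panel, the genotype median as a line, and M10_2 (triangle) and M13_1 (square) marked. Both marked mice are above all others at Hoxa13, Hoxb13, Hoxd12, Hoxd13 and Hoxa9, below them at Hoxb6, Hoxb8, Hoxb9 and Hoxd9, among them at Hoxa11, and apart from each other at Hoxd10 and Hoxd11.

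Counted gene by gene on the log2(CPM + 0.1) scale, M10_2 was at least 2-fold above the WT median in 10 of the 34 Hox genes, against 5.06% of all genes tested, and at least 2-fold below it in 16, against 6.11%. M13_1 was above in 12 of 34, against 5.13%, and below in 15, against 7.06%. Both mice together were above in 10 of 34, against 3.54% of all genes, and below in 15, against 4.85%. Summed over paralogs 12 and 13, M10_2 reached 208 RPKM and M13_1 237 RPKM, which was 68.7% and 69.8% of all Hox RPKM, where the other 4 APC Min/+ mice had 0.605 to 0.717%. The paralog 4 to 8 sum was 36.4 and 34.5 RPKM in these mice and 70.6 to 130.0 RPKM in the other 10. The paralog 9 to 11 sum was 51.3 RPKM in M10_2, within the 47.8 to 58.0 RPKM of the other 10 mice, and 61.6 RPKM in M13_1, above them. The number of Hox genes at or above 1 RPKM was 14 in M10_2 and 18 in M13_1, and 18 to 22 in the other mice.

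The other 4 APC Min/+ mice lay close to WT. Mouse M8_2 differed from the WT median by at least 2-fold in 2 of 34 Hox genes, Hoxb13 and Hoxd13, against 2.16% of all genes, and M18_2b in Hoxb13 alone, against 1.1%. Mouse M2_A differed in Hoxc8 and Hoxc10, against 3.01%, and M20_1 in 0 of 34, against 1.75%. Each of these genes was counted below 1.2 CPM in the mice concerned. Hoxb9 was at 75.6, 77.4, 81.6 and 95.4 CPM in the 4 mice and at 90.1 to 101.6 CPM in WT, so 3 of the 4 lay below the WT range (log2 fold change without M10_2 and M13_1 of -0.19, SE 0.095, FDR = 1.0 in edgeR's quasi-likelihood test).

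Genes within or beside the clusters were listed with the Hox genes. Of the 26 matched, 18 were tested, 0 were called and 3 had an unadjusted p under 0.05, against 5.27% of all genes tested. These 3 were all higher in APC Min/+, and the median log2 fold change of the list was 0.008. Hottip, a long noncoding RNA transcribed next to Hoxa13, reached 42.8 CPM (M10_2) and 31.1 CPM (M13_1), with no more than 0.0974 CPM in the others (log2 fold change 8.84, SE 2.28, FDR = 0.908 in edgeR). Hoxa11os, the antisense partner of Hoxa11, was at 90.1 and 76.6 CPM against 1.73 to 3.88 CPM (3.47, SE 1.06, FDR = 0.908). Skap2, a gene beyond the head end of HoxA, was at 63.5 and 64.9 CPM against 19.4 to 29.8 CPM (0.72, SE 0.294, FDR = 0.908). Neighbouring homeobox genes just outside the clusters followed the same mice, with Evx2, next to Hoxd13, at 2.12 CPM (M10_2) and 10.8 CPM (M13_1) and at most 0.0535 CPM in the others. Hotair, a noncoding RNA of the HoxC cluster, had 0 counts in both mice and 0.0766 to 0.341 CPM in the others.

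The partners and regulators of Hox genes showed few such differences. Of the 9 Pbx, Meis and Pknox genes, which encode homeodomain cofactors that bind DNA with Hox proteins, 1, Pbx3, had an unadjusted p under 0.05 (log2 fold change 0.29, SE 0.123, FDR = 0.908), 5 were higher and 4 lower in APC Min/+, and the median log2 fold change was 0.005. Of 24 Polycomb genes, whose products keep Hox clusters silent, 1 had an unadjusted p under 0.05, the median was 0.010, and Pcgf5 had the largest fold change (log2 fold change 0.44, SE 0.155, FDR = 0.908 in edgeR). Of 9 Trithorax genes and other activators, 0 had a p under 0.05 in edgeR's test and the median was 0.017. Of 10 tested genes of retinoid synthesis and response, which regulate the anterior Hox genes, 0 had an unadjusted p under 0.05 and the median was 0.018, yet Aldh1a1, a retinaldehyde dehydrogenase, was at 41.1 and 64.2 CPM in M10_2 and M13_1 against 431 to 1250 CPM. Both tested Cdx genes had a p above 0.05, and Cdx2, which activates central Hox genes and sets intestinal identity, was at 49.9 CPM (M10_2) and 20.6 CPM (M13_1) against 66.6 to 251 CPM in the others. The log2 fold change was -0.32 (SE 0.494, FDR = 0.919 in edgeR) for Cdx2 and 0.21 (SE 0.303, FDR = 0.917) for Cdx1. None of these lists held a called gene, at an FDR of 0.908 or more for each gene.

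Markers of the cell types a section could hold were read in the same mice. The 12 colonic epithelium markers summed to 15200 CPM (M10_2) and 15500 CPM (M13_1) against 29800 to 54100 CPM in the other 10, a sum led by Car1 with the values given above. Epcam was at 1360 and 1280 CPM within the 1240 to 1620 CPM of the others, and Car4, another carbonic anhydrase of colonocytes, at 924 and 953 CPM above their 241 to 582 CPM. Cdh1 was also above them, at 1490 and 1200 CPM against 297 to 871, while Muc2, at 1710 and 1270 CPM, lay below their 2830 to 10500. The 8 smooth muscle markers summed to 5740 and 6240 CPM within 4450 to 7010 CPM, and the 6 fibroblast markers to 2830 and 2290 CPM against 1100 to 2480 CPM. The 10 enteric neuron and glia markers (88.9 and 80.4 CPM against 49.1 to 112), the 4 endothelium markers (125 and 118 CPM against 62.8 to 125) and the 5 leukocyte markers (183 and 165 CPM against 131 to 273) lay within or at the edge of the other mice.

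Of the 11 stratified squamous markers, which would mark anal skin, 8 were tested and the sum was 6.69 and 7.52 CPM against 4.08 to 5.87 CPM. Krt10 (3.19 and 3.75 CPM against 1.77 to 2.69) and Lor (0.172 and 0.331 CPM against 0.0205 to 0.125) were above the others in both mice. Krt14, at 1.90 and 2.12 CPM, lay within their 1.06 to 2.24. Ivl was at 0 in every mouse. Krt5 was at 0.0909 and 0.199 CPM against 0.0192 to 0.111, and Trp63 at 0.0909 and 0.0442 CPM against 0.0737 to 0.339. The 6 skeletal muscle markers summed to 20.5 and 16.5 CPM against 25.5 to 38.1 CPM, although Myh2, a fast muscle myosin, was at 1.57 and 2.09 CPM against 0.0384 to 0.308. The low skeletal muscle sum went with Ckm, at 9.70 and 10.1 CPM against 19.3 to 34.3. The summed 5 matched small intestine markers (21.9 and 27.2 CPM against 28.9 to 88.5) and the summed 4 adipocyte markers (7.59 and 17.6 CPM against 21.1 to 412) were below the others. Most of the small intestine sum came from Fabp6 (2.71 and 3.24 CPM) and Rbp2 (19.2 and 23.7 CPM). Both lay within the 2.55 to 50.7 and 15.5 to 36.5 CPM of the others. An unadjusted p under 0.05, found for 5.27% of all genes tested, was found for 3 of 8 smooth muscle markers (Actg2, Des and Cnn1). Their list median log2 fold change was 0.230. It was also found for 1 of 6 fibroblast markers (Col3a1, list median 0.353) and 1 of 4 tested skeletal muscle markers (Myh2, list median 0.203). All of these markers were higher in APC Min/+. The other marker lists held 0 such genes, and edgeR called 0 markers. The low sums of the epithelial, small intestine, skeletal muscle and adipocyte markers and the high stratified squamous sum were found in the 2 mice with the distinct Hox profile. Apart from the adipocyte list, the direction of the sum was not shared by all members of the list. The part of these markers in the Hox profile was not tested.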

How the data were processed

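Paired-end RNA-Seq libraries were made from total RNA of 6 APC Min/+ and 6 WT mice. Reads were mapped by the authors with STAR (2.3.0 in the submitters' processing notes, GRCm38.p2) and summed per gene with featureCounts. The deposited tables, 1 per mouse, hold raw counts and the gene length in bases, which is the other column used. The counting of strand and the annotation release are not given in the sources used here. Groups were taken from the labels. Versioned Ensembl identifiers were joined to GENCODE M21 without the version, and 37607 of 38924 gained a symbol. Of the 39 genes the rule speaks of, 38 were listed and 1 is not reported here.

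Counts were fitted in edgeR 4.0.16 (R 4.3.3) with the quasi-likelihood test, genotype as the only term, TMM normalization, a filter of 10 counts in no fewer than 3 mice that left 20311 genes, and Benjamini-Hochberg adjustment over them. A call needed an FDR under 0.05 and at least 2-fold. DESeq2 1.42.0, limma 3.58.1 and the other alternatives are given at the end. CPM was scaled by the TMM factors and log2 values used a pseudocount of 0.1 CPM. Correlations used 100000 permutations. Fits were tested on simulated data.

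Each of the 37 matched genes is named, and Hoxd4 has no level. Full statistics are given for genes with a 2-fold change or an unadjusted p under 0.05 and for the 5 highest in WT, and at most 4 genes are named per other list. Defining markers, Evx2, Skap2 and further members of the marker and regulator lists were named beside these after their values were seen. The members and lists were chosen with earlier results of these data known. Mice are labelled as separate animals. Standard deviations describe the spread between mice, and standard errors come from fits that include this spread. Floors cover counting error only.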

Additional observations from a re-analysis of the deposited data

Results flagged for a closer look

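In 68 groups of 6 mice (34 genes in each genotype), 7 values lay far from the other 5 by Dixon's test at the 95% level, which chance gives in about 1 of 20 groups. In APC Min/+ mouse M13_1 these were Hoxd13 at 209 CPM, where the other 5 had 0.231 to 12.4 CPM, Hoxd11 at 45.6 CPM (4.84 to 7.85 CPM) and Hoxd12 at 8.97 CPM (0 to 1.44 CPM). The test compares the most distant mouse with its nearest neighbour, so genes in which M10_2 and M13_1 lay at similar distances, such as Hoxa13 and Hoxb13, were not found by it. In WT mouse M17_1 these were Hoxb5 at 64.7 CPM (25.5 to 39.8 CPM), Hoxd3 at 64.0 CPM (18.9 to 31.0 CPM) and Hoxb9 at 102 CPM (90.1 to 94.0 CPM). In APC Min/+ mouse M2_A, Hoxc4 was at 1.07 CPM against 0.426 to 0.638 CPM in the other 5.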

How the results depend on the processing

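The count of Hox genes called was 0 with RLE and upper-quartile factors, without a filter, with a minimum of 1 CPM in 6 mice, with limma-voom and without M10_2 and M13_1, and 0 to 0 with single mice removed. It was 1 with DESeq2, 1 with the likelihood ratio test and 1 with the exact test, where all genes called were 27, 15 and 12 in place of 0. The count of Hox genes that separate the genotypes was 0 to 1 when each mouse was left out. The count of genes at or above 1 RPKM in WT was 19, and 14 to 23 under the other thresholds and scalings. Of the 14 log2 fold changes with full statistics, those of Hoxb8 (0.065) and Hoxd12 (-0.476) reversed without M10_2 and M13_1, and the other 12 kept their sign. Hoxb8 was at 0.465 and 0.861 CPM in M10_2 and M13_1 against 16.6 to 28.3 CPM in the other 10 mice. Hoxd12 had at most 12 counts in each of those 10. Why M10_2 and M13_1 differ was not tested. The 2 relations with the stromal markers that passed became 0 over 12 mice, 0 with the fibroblast list alone, 0 with the smooth muscle list alone and 0 to 2 when each mouse was left out (0 without M2_A). By rank, 4 passed, and 3, 0, 0 and 0 to 4 did so under these same changes. The fit without M10_2 and M13_1 on the same genes, and the relations within WT mice, were added after seeing the data. No paired analysis was possible because the replicate numbers were given in accession order and the labels tie no mouse of one genotype to a mouse of the other, although the name M18 occurs in both. Hoxb13, Hoxd12, Hoxd13 and HoxC genes lie near the detection floor in WT, so low levels are imprecise.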
